A study of Mus musculus with 20 samples.

Results

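The Tcl1 gene family of the mouse was described across all 10 groups of an RNA-seq study in which Chd4, which encodes the ATPase of the NuRD chromatin complex, was deleted conditionally in germ cells. The members were the rows with the symbols Tcl1, Tcl1b1, Tcl1b2, Tcl1b3, Tcl1b4 and Tcl1b5, which gave 6 genes of 53722 in the oocyte table and the same 6 of 55291 in the spermatogonia table. The study held 20 libraries, 2 in each group: non-growing oocytes at postnatal days 1, 5 and 10 (P1, P5 and P10), growing oocytes at P10 and undifferentiated spermatogonia at P3, each as knockout and control. All mice had a mixed background of C57BL/6, 129S1/Sv and FVB/NJ.

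At P1, P5 and P3 the knockouts were Chd4 f/- and the controls Chd4 f/+, and both carried 1 copy of Ddx4-Cre, a driver active in germ cells, so these controls had lost 1 allele in cells where Cre acted. At P10 the knockouts were Chd4 f/f with Gdf9-iCre, a driver active in oocytes, and their controls were Chd4 f/f without Cre. The labels give no sort or gate and do not say that replicates came from separate animals, so the p-values below measure the spread between these libraries, which may be technical. The libraries measure bulk RNA, in which fewer cells of a type and less RNA per cell cannot be told apart.

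TCL1 proteins are small and have no enzyme activity of their own. They bind the AKT kinases, which act downstream of PI3K in growth and survival signalling, and are known as AKT coactivators. Tcl1 is also known from lymphoid cells and early embryos, and the mouse genome carries a group of Tcl1b genes next to it that are known from oocytes and early embryos.

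The 6 genes lie together on chromosome 12 of GRCm38, between 105146014 and 105222793, a span of 76.8 kb. In the GENCODE M21 annotation all are protein-coding. The order along the chromosome is Tcl1b2 (105146014 to 105155225), Tcl1b1 (105159690 to 105166625), Tcl1b5 (105176344 to 105181145), Tcl1b3 (105191043 to 105195612), Tcl1b4 (105201957 to 105206993) and Tcl1 (105216750 to 105222793). The 5 Tcl1b genes are on the plus strand and Tcl1 is on the minus strand.

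Promoter stretches are shown for Tcl1, which rose in growing knockouts, and for Tcl1b1 and Tcl1b3, which had the largest falls, because they show how alike the Tcl1b starts are and how Tcl1 differs. The sequences are from RefSeq (GRCm38.p6), read 5′ to 3′ on the gene's strand. Each is the part of a window from 250 bases before to 50 bases after the RefSeq start that comes before the first annotated exon. The capitals mark a run of 25 bases that the windows of all 5 Tcl1b genes hold.
Tcl1 (minus strand, chr12:105222794-105222987): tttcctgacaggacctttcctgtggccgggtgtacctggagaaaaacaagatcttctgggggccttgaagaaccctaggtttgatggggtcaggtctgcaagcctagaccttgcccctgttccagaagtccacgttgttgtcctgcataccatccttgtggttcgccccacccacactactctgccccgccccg
Tcl1b1 (plus strand, chr12:105159454-105159689): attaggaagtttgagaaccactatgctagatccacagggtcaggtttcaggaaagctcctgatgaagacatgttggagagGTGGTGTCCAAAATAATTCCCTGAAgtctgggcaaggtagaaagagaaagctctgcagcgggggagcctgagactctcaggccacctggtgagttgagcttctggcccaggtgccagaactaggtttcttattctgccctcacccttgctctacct
Tcl1b3 (plus strand, chr12:105190795-105191042): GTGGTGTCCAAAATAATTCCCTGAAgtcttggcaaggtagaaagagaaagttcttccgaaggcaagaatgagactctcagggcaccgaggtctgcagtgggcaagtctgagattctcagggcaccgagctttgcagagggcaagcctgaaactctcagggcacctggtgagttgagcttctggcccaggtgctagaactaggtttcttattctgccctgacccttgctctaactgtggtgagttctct

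Among the 10 pairs of Tcl1b genes the promoter windows were 90.9% to 98.6% identical over their aligned bases, gaps not counted, and one transcript of each gene was 85.5% to 93.3% identical. The 5 pairs of Tcl1 with a Tcl1b gene had 60.8% to 69.9% in promoters and 63.9% to 67.0% in transcripts. The shared run was chosen after the sequences were seen. In Tcl1b3 it begins at the edge of the window, so the window limits its length. On either strand the run stood in 5 of the 32851 RefSeq promoters searched (0.0152%), those of the 5 Tcl1b genes, and not in that of Tcl1. The promoters searched did not cover every chromosome. An E-box, CANNTG, stood in the windows of 6 of 6 members and in 72.3% of the promoters searched. On either strand no member held the NOBOX elements TAATTG (in 8% of promoters) and TAATTA (5.29%), the LHX8 element TGATTG (14%) or the TATA box TATAAA (13.6%), which says only that these letters are not in these windows.

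The likeness bears on how reads were assigned. Of the stretches of 150 bases, the length of a read, in the transcripts compared, 3.8% of those of Tcl1b2 and 3.7% of those of Tcl1b3 also occurred in the other gene of this pair, and none of the other 4 members' stretches occurred in another gene. The way reads with several matches were counted is not given in the sources used here, so values of Tcl1b2 and Tcl1b3 carry that uncertainty. Only exact matches over the full 150 bases were looked for. Trimmed or mismatched reads of the other Tcl1b genes may therefore carry it too.

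Whole-series facts that touch the family are these. Recovered depth was 15.33 M to 30.07 M reads per library. Chd4 fell at P1 from 27.95 ± 4.66 TPM (TPM being transcript abundance scaled to gene length and library total; SD, n = 2) to 3.11 ± 1.71 (limma adjusted p = 0.0136). At P5 it went from 16.2 ± 2.43 to 6.61 ± 2.36 TPM (adjusted p = 0.351), in P10 non-growing oocytes from 1.74 ± 0.157 to 0.791 ± 0.770 (0.615), in P10 growing oocytes from 2.26 ± 0.988 to 1.08 ± 0.641 (0.488) and in spermatogonia from 267.5 ± 26.7 to 45.98 ± 8.13 (0.0671), none of which passed the limma test. These values cover all exons of Chd4, deleted or not. At least 12 of 14 oocyte markers exceeded 1 TPM in a library of each oocyte group, and at least 11 of 12 markers of undifferentiated spermatogonia did so in both spermatogonia groups. Summed markers of gonadal supporting cells lay between 0.783 and 126.9 TPM in oocyte libraries and between 124.6 and 510.7 in spermatogonia, those of stromal cells between 0.253 and 17.6 and between 13.6 and 60.9, those of endothelial cells between 0.669 and 102.5 and between 28.1 and 56.5, and those of blood and immune cells between 0 and 20.5 and between 32.8 and 108.2.

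Tcl1 was the most abundant member in every library and was present in both sexes, whereas the Tcl1b genes were read in oocytes. Among the genes of a library, ordered by TPM, Tcl1 stood between rank 39 and rank 502 in the 16 oocyte libraries and between 314 and 498 in the 4 spermatogonia libraries. In spermatogonia Tcl1 had 479.8 and 501.4 TPM in control replicates 1 and 2 and 337.5 and 410.1 in the knockouts. The Tcl1b genes were at 0 reads in 19 of 20 gene and library pairs there, and the remaining one was a single Tcl1b5 read (0.175 TPM) in knockout replicate 1. A count of 0 allows 3 reads, worth 0.232 to 0.531 TPM for these genes and libraries, which covers counting error only.

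In control oocytes Tcl1 had 467.4 and 533.3 TPM at P1, 1442 and 1373 at P5, 801.3 and 831.3 in non-growing oocytes at P10, and 1118 and 1350 in growing oocytes. Ordered by group mean, the growing knockouts had the highest Tcl1 (2122 TPM), followed by P5 controls (1408), growing controls (1234), P5 knockouts (928.6), P10 non-growing controls (816.3), P10 non-growing knockouts (515.5), P1 controls (500.4) and P1 knockouts (436.3). Neighbouring groups in this order did not overlap, except among the last 3.

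**Figure D1:**
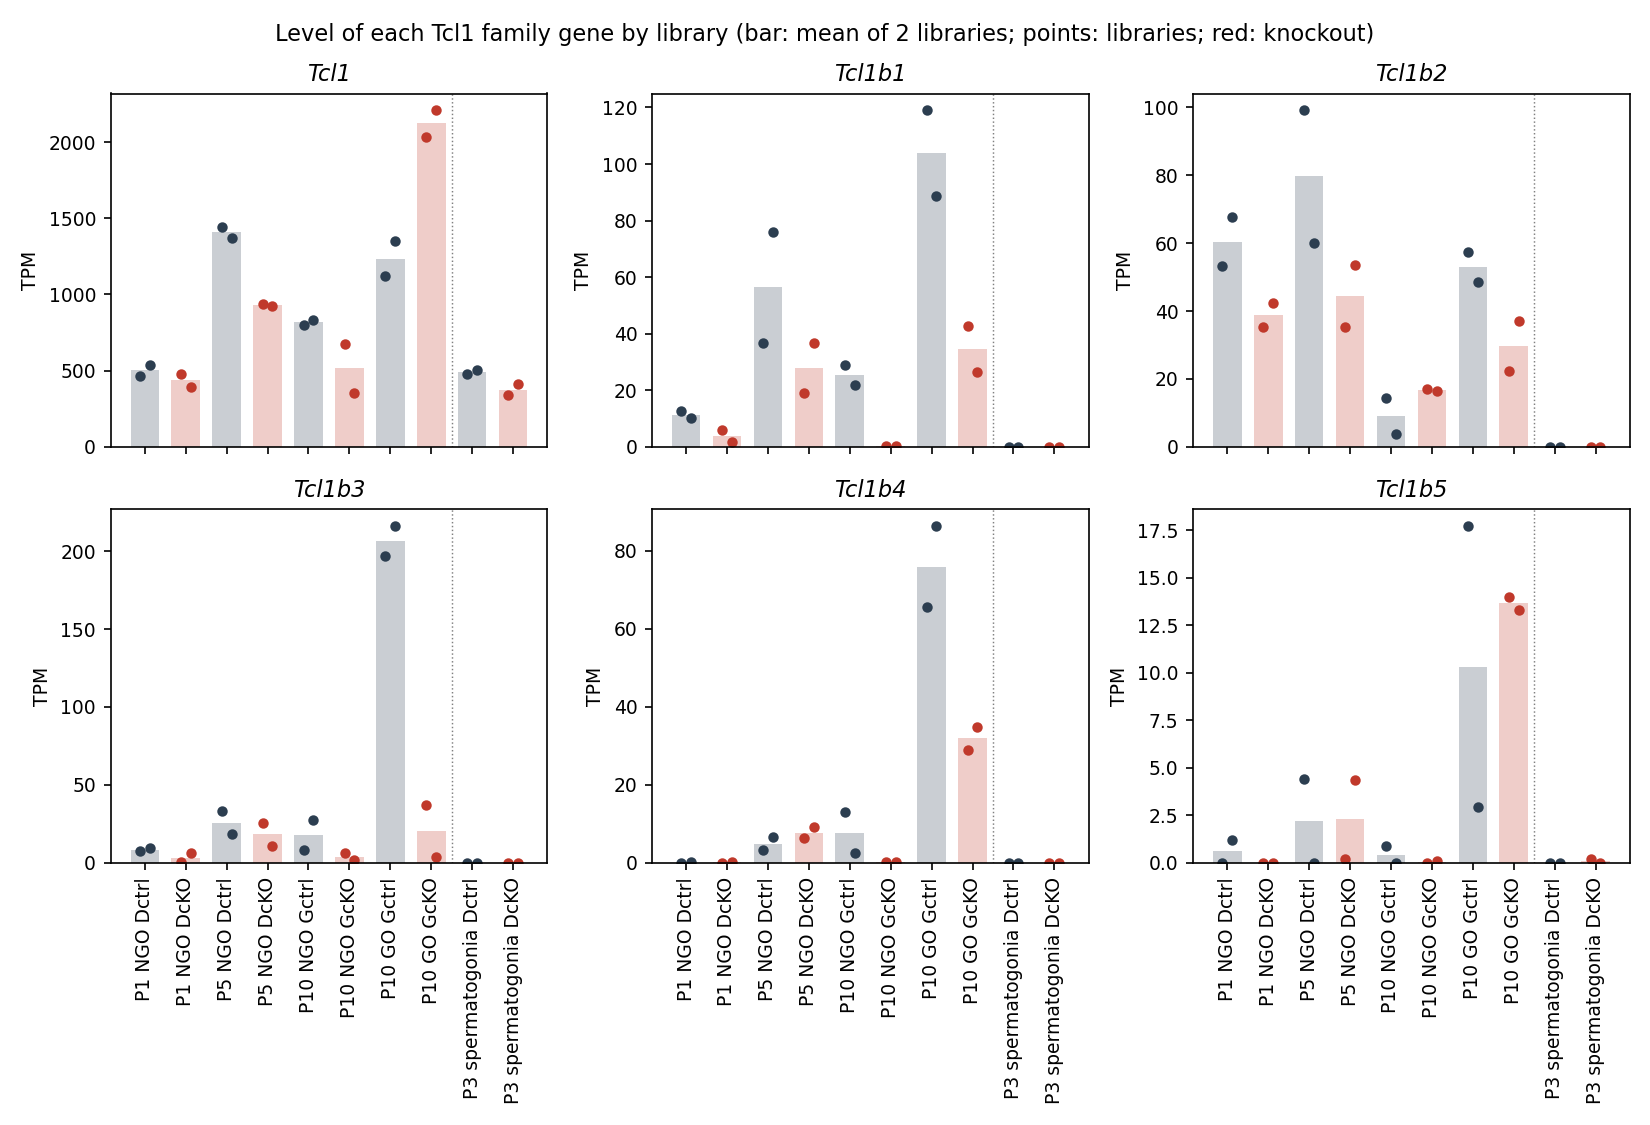
TPM of each family gene (vertical axis, linear, its own scale in each panel) in the 10 groups (horizontal axis). Points are the 2 libraries of a group, bars their mean, dark for controls and red for knockouts, and the dotted line separates the spermatogonia table, which was made separately. Tcl1 was present in all groups, with its highest libraries, 2036 and 2208 TPM, among growing knockouts, while Tcl1b3 had 196.9 and 216.0 TPM in growing controls and at most 37.1 TPM in any other library.

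The Tcl1b genes differed from Tcl1, and among themselves, in when they were high. Tcl1b1, Tcl1b3 and Tcl1b4 had their highest group mean in growing controls (103.8, 206.4 and 76.0 TPM). Tcl1b2 had its highest mean in P5 controls (79.7 TPM), and each of its top 5 groups overlapped the next. Tcl1b5, whose highest group mean was the lowest of the members, had means of 13.7 TPM in growing knockouts and 10.3 in growing controls, with overlapping libraries, and at most 4.40 TPM in any other library.

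The make-up of the Tcl1b transcripts differed between stages. At P1 Tcl1b2 held 72.9% and 76.5% of the summed Tcl1b TPM in control replicates 1 and 2, and Tcl1b4 was at 0 reads and 1 read. In growing controls Tcl1b3 held 43.1% and 48.8% and Tcl1b2 12.57% and 10.96%. In P10 non-growing knockouts Tcl1b2 held 72.3% and 87.9%, against 22.0% and 6.76% in their controls. These shares describe the libraries and were not tested.

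**Figure D2:**
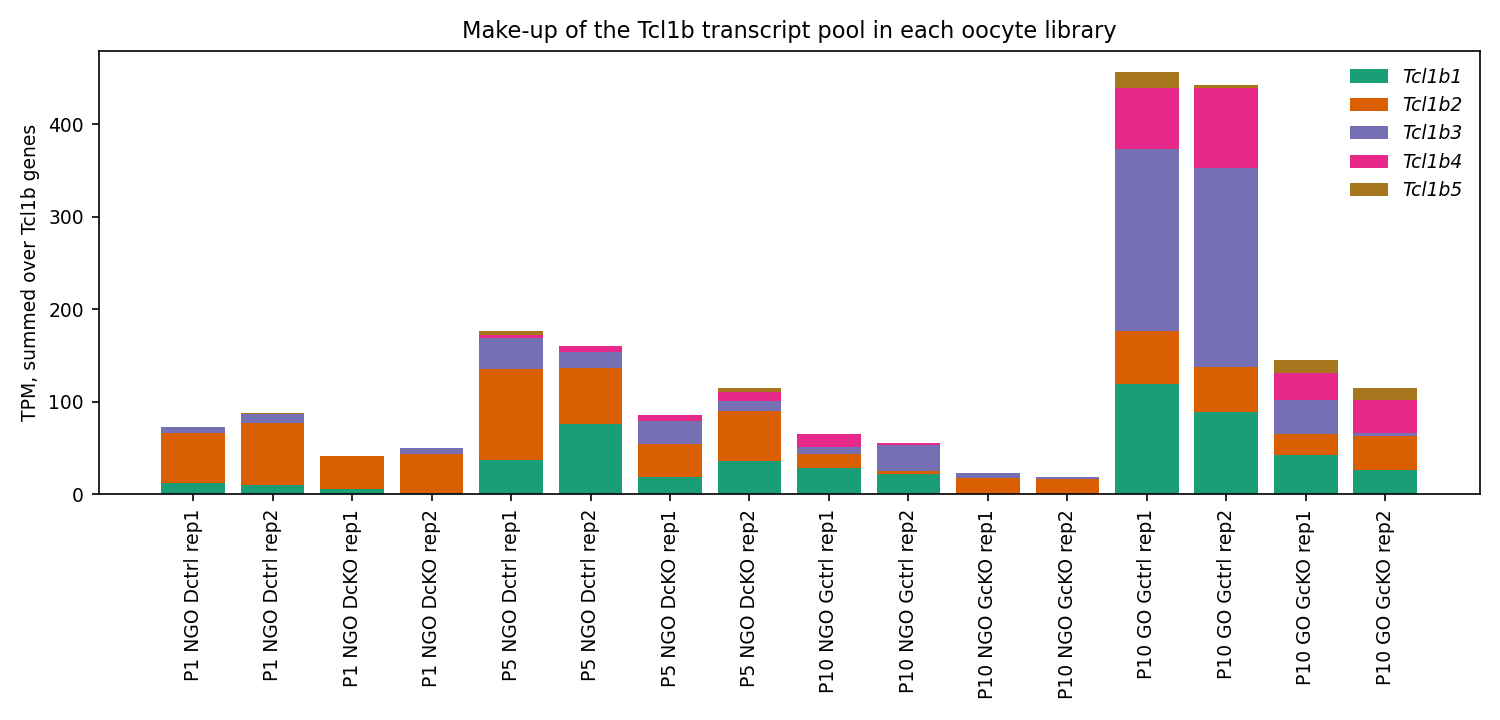
Summed TPM of the 5 Tcl1b genes (vertical axis) in each of the 16 oocyte libraries (horizontal axis), with each gene's part in its own colour. The 2 growing control libraries stand highest, at 456.6 and 442.4 TPM with Tcl1b3 as the largest part, and the 2 P10 non-growing knockouts stand lowest, at 23.7 and 18.7 TPM with Tcl1b2 as the largest part.

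The first comparison of controls was P5 against P1 in non-growing oocytes. Tcl1 rose from 500.4 ± 46.6 to 1408 ± 49.0 TPM (n = 2; log2 fold change 1.49, standard error 0.227, limma adjusted p = 0.00298). Tcl1b1 had 12.6 and 10.0 TPM at P1 and 36.8 and 76.0 at P5, without overlap, and rose (log2 2.14, limma adjusted p = 0.0367). Tcl1b4 rose from 1 read in the 2 P1 libraries to 131 reads at P5, which were 3.18 and 6.52 TPM (log2 2.43, limma adjusted p = 0.037). From reads the ratio was 113, with an exact 95% interval of 19.9 to 4480. The interval pools the reads of the 2 libraries of a group, so it covers counting error only and not the spread between libraries. Reads also carried no molecular identifiers, so it may be too narrow. These 3 of 6 members rose and none fell, where 4.7% of all tested genes were called in either direction, 2.72% higher and 1.98% lower. Groups did not overlap for 4 of 6 members, against 51.5% of all genes. Without any single library of the 4, only Tcl1 of the 3 still passed.

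The other members did not pass between P1 and P5. Tcl1b2 had 53.3 and 67.7 TPM at P1 and 99.1 and 60.2 at P5, with overlapping groups. Tcl1b3 had 7.23 and 9.47 TPM at P1 and 32.9 and 18.1 at P5, without overlap (log2 1.46, limma adjusted p = 0.561). Tcl1b5 was read in 1 library of each group, at 1.19 and 4.40 TPM.

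P10 non-growing controls were set against P5 controls, a comparison in which age, Cre and Chd4 genotype differ together and cannot be told apart, and in which the median log2 difference of all tested genes was -0.47. Tcl1 fell to 816.3 ± 21.3 TPM from 1408 ± 49.0 (log2 -0.79, limma adjusted p = 0.0271), and lost the call without any 1 of the 4 libraries. Tcl1b2 had 14.4 and 3.75 TPM at P10 against 99.1 and 60.2 at P5 and fell (log2 -3.19, standard error 0.49, limma adjusted p = 0.000733). The remaining 4 members did not pass, with log2 differences of -1.05 for Tcl1b1, -0.63 for Tcl1b3, 0.30 for Tcl1b4 and -0.77 for Tcl1b5. Of the 6 members 2 were called, both lower, where 22.7% of all genes were called, 5.54% higher and 17.1% lower. Groups did not overlap for 3 of 6, against 57.4% of all genes.

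Growing against non-growing oocytes of the P10 controls shared genotype and age. Tcl1b3 had 8.43 and 27.6 TPM in non-growing and 196.9 and 216.0 in growing controls, and rose (log2 3.66, standard error 1.016, limma adjusted p = 0.0197). Tcl1b4 had 13.1 and 2.39 TPM against 65.6 and 86.3, and rose (log2 3.46, limma adjusted p = 0.000993). All growing libraries lay above all non-growing ones for both genes.

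Tcl1b2 had 14.4 and 3.75 TPM in non-growing and 57.4 and 48.5 in growing controls, and rose (log2 2.65, limma adjusted p = 0.00176). Tcl1b1 had 28.9 and 21.7 TPM against 119.0 and 88.7, and rose (log2 1.99, limma adjusted p = 0.0139). Tcl1 (log2 0.59, limma adjusted p = 0.0835) and Tcl1b5 (log2 2.65, limma adjusted p = 0.0585) were also higher in every growing library, but did not pass; Tcl1b5 passed without growing control replicate 2 (adjusted p = 0.0278). Of 6 members 4 rose, where 24.3% of all genes were called, 11% higher and 13.2% lower. No member's groups overlapped, against 52.8% of all tested genes without overlap. The median over members was 2.65, beside 0 over all genes. The calls of Tcl1b2 and Tcl1b4 held without each of the 4 libraries, that of Tcl1b1 without 2 of them and that of Tcl1b3 without 1. The summed Tcl1b TPM was 60.6 ± 7.22 in non-growing and 449.5 ± 10.0 in growing controls, a ratio of 7.42.

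**Figure D3:**
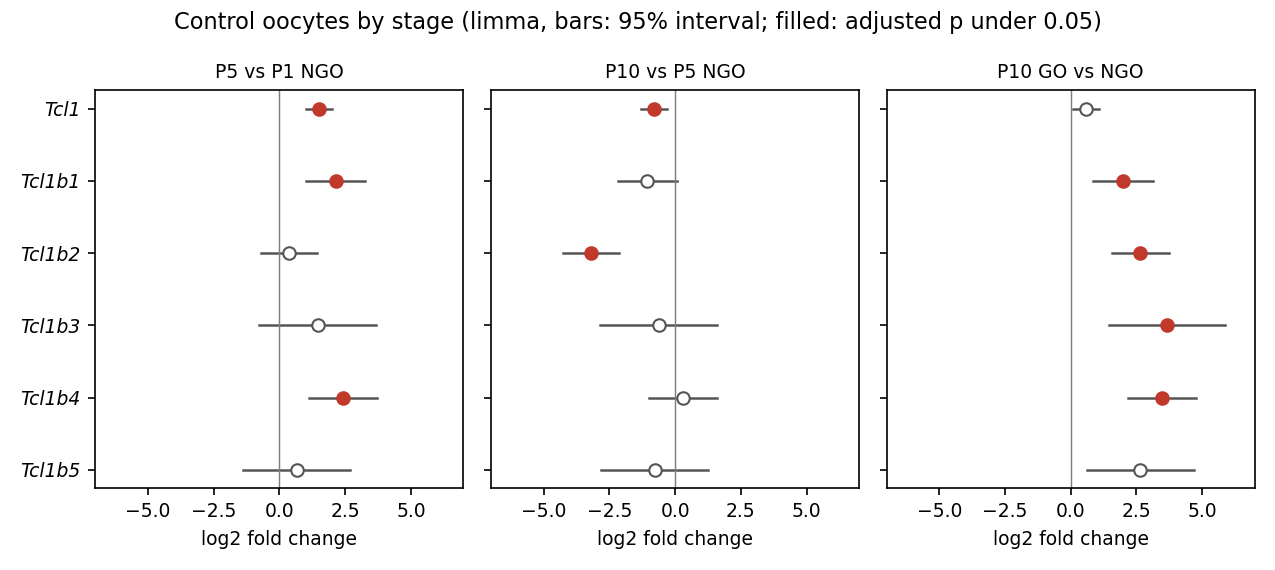
Log2 fold change of log2(TPM + 1) (horizontal axis) of each member (vertical axis) in the 3 comparisons of control oocytes. Points are limma estimates, bars 95% intervals, and filled points passed an adjusted p of 0.05. Tcl1b2 lay at -3.19 from P5 to P10 and at 2.65 from non-growing to growing oocytes, and Tcl1b1, Tcl1b3 and Tcl1b4 also passed in the latter comparison.

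In knockouts of P1 and P5 no member passed the test. At P1 Tcl1b1 had 6.02 and 1.73 TPM in knockouts and 12.6 and 10.0 in controls, without overlap (log2 -1.48, 95% interval -2.62 to -0.35, limma adjusted p = 0.267). Tcl1b2 had 35.3 and 42.3 TPM against 53.3 and 67.7, also without overlap (log2 -0.62, limma adjusted p = 0.836). Tcl1b3 had 0.214 and 6.21 TPM against 7.23 and 9.47, and its lower knockout library had 2 reads (log2 -1.65, limma adjusted p = 0.7). Tcl1 itself overlapped, with 478.0 and 394.5 TPM in knockouts and 467.4 and 533.3 in controls (log2 -0.20), as did Tcl1b4 (0.02) and Tcl1b5 (-0.56), which were near 0.

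At P5 Tcl1 had 935.6 and 921.7 TPM in knockouts and 1442 and 1373 in controls, a gap wider than the spread of either pair (log2 -0.60, 95% interval -1.09 to -0.10), which did not pass over all genes (limma adjusted p = 0.293). Tcl1b1 had 19.2 and 36.6 TPM in knockouts against 36.8 and 76.0, the groups being just apart (log2 -0.97, limma adjusted p = 0.528). Tcl1b2 had 35.2 and 53.5 TPM against 99.1 and 60.2 (log2 -0.82, limma adjusted p = 0.596). Tcl1b3, Tcl1b4 and Tcl1b5 overlapped between the groups. Summed markers of supporting cells were 35.4 to 58.4 TPM in P5 knockouts and 7.10 to 7.91 in P5 controls. Those of lymphocytes were 21.5 to 25.0 against 7.72 to 12.8, and those of stromal, endothelial and blood and immune cells overlapped. The part of these markers in the lower Tcl1 values was not tested.

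At each of P1 and P5 limma called 0 of 6 members, 1 had an unadjusted p under 0.05 (Tcl1b1 at P1, Tcl1 at P5), and no other tool was run. Of all tested genes 10.2% at P1 and 11.8% at P5 had such an unadjusted p, so 1 of 6 is close to the background. In a P1 library Tcl1b4 had at most 2 reads and Tcl1b5 at most 10, so a fall of either could not have been called at that age. Both passed the filter through other groups. Of all tested genes 1.7% were called at P1, 0.86% higher and 0.84% lower, and 1.36% at P5, 1.05% higher and 0.313% lower. Groups did not overlap for 3 of 6 members at either age, against 40.9% of all genes at P1 and 47.3% at P5. The summed Tcl1b TPM was 80.8 ± 10.8 in controls and 46.0 ± 6.26 in knockouts at P1, and 168.7 ± 10.96 and 100.4 ± 20.02 at P5. The knockout effect at P5 minus that at P1 passed for 0 of 6 members by limma, with 0 at an unadjusted p under 0.05, where 0.313% of all genes passed, 0.23% with a higher and 0.083% with a lower effect at P5. The differences were -0.40 for Tcl1, 0.51 for Tcl1b1, -0.19 for Tcl1b2, 1.13 for Tcl1b3, 0.60 for Tcl1b4 and 0.69 for Tcl1b5.

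In P10 non-growing oocytes Tcl1b1 was close to 0 reads in the knockouts. It had 28.9 and 21.7 TPM in controls (232 and 158 reads) and 0.306 and 0.119 TPM in knockouts (3 reads and 1 read), and fell (log2 -4.43, standard error 0.519, limma adjusted p = 0.00254). The scale adds 1 TPM to every value, so this fold change understates the ratio, which was 116 from reads with an exact 95% counting interval of 45.0 to 428.0. Leaving out each of the 4 libraries in turn gave log2 values from -4.63 to -4.23, and all passed.

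Tcl1b4 had 13.1 and 2.39 TPM in controls (151 and 25 reads) and 0.0709 and 0.248 TPM in knockouts (1 read and 3 reads). It fell (log2 -2.58, standard error 0.59, limma adjusted p = 0.0494), and the ratio from reads was 52.4, with a counting interval of 20.1 to 194.0. The control libraries differed 5.47-fold, and the call held only without control replicate 2 among the 4 libraries left out. Where only these 2 groups were fitted, with their own estimate of spread, limma called neither Tcl1b1 (adjusted p = 0.302) nor Tcl1b4 (0.394), and 0 genes of the whole table passed.

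The other Tcl1b genes of these oocytes did not pass. Tcl1b2 had 17.1 and 16.5 TPM in knockouts and 14.4 and 3.75 in controls, and was the one member with a positive estimate (log2 1.05, limma adjusted p = 0.33). It passed without control replicate 1, which had the higher control value (adjusted p = 0.0394). Tcl1b3 had 6.19 and 1.78 TPM against 8.43 and 27.6 (log2 -1.88, limma adjusted p = 0.418). Tcl1b5 was at most at 0.860 TPM (log2 -0.37). Estimates were thus below 0 for 4 of 5 Tcl1b genes.

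Tcl1 had 675.8 and 355.3 TPM in these knockouts and 801.3 and 831.3 in controls (log2 -0.73, limma adjusted p = 0.137). The knockout libraries differed 1.902-fold. Without knockout replicate 1 the log2 difference was -1.20 and passed (adjusted p = 0.00209), and without knockout replicate 2 it was -0.27 (0.507). Of 6 members 2 fell and none rose, where 1.92% of all genes were called, 1.02% higher and 0.899% lower. Groups did not overlap for 5 of 6 members, against 34.5% of all genes.

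In P10 growing oocytes Tcl1 rose and Tcl1b3 fell in the knockouts. Tcl1 had 2036 and 2208 TPM in knockouts and 1118 and 1350 in controls, and rose (log2 0.79, standard error 0.227, limma adjusted p = 0.0381). Both knockout libraries lay above both controls, but the call was lost without any 1 of the 4 libraries (adjusted p from 0.073 to 0.22).

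Tcl1b3 had 37.1 and 3.54 TPM in growing knockouts and 196.9 and 216.0 in controls, and fell (log2 -3.98, standard error 1.016, limma adjusted p = 0.0208). The knockout libraries differed 10.5-fold, and both lay far below the controls. The call held without knockout replicate 1 and was lost without each of the other 3 libraries, and with only these 2 groups fitted the adjusted p was 0.0632.

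Tcl1b1 had 42.8 and 26.4 TPM in growing knockouts against 119.0 and 88.7 (log2 -1.58, limma adjusted p = 0.0658). Tcl1b4 had 28.9 and 34.9 TPM against 65.6 and 86.3 (log2 -1.22, limma adjusted p = 0.223), and Tcl1b2 22.4 and 36.9 against 57.4 and 48.5 (log2 -0.85, limma adjusted p = 0.314). These 3 genes were lower in both knockout libraries without passing. Tcl1b5 had 14.0 and 13.3 TPM in knockouts and 17.7 and 2.92 in controls, with overlapping groups (log2 0.77, limma adjusted p = 0.726).

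Of 6 members 1 rose and 1 fell in growing oocytes, where 13.8% of all genes were called, 9.12% higher and 4.69% lower. Groups did not overlap for 5 of 6 members, against 48.3% of all genes. The summed Tcl1b TPM was 449.5 ± 10.0 in controls and 130.1 ± 21.3 in knockouts, a ratio of 3.45. Tcl1 made up 73.2% of the family's TPM in growing controls and 94.2% in growing knockouts on average.

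Lymphocyte markers were examined beside the higher Tcl1 of growing knockouts because Tcl1 is known from those cells. Their summed TPM was 10.0 to 25.0 in growing controls and 27.2 to 67.7 in growing knockouts, with 4 of 9 above 1 TPM in a knockout library. Of 5 tested, Cd79b and Ighm, parts of the B-cell receptor, rose, from 0.0468 ± 0.0662 to 9.11 ± 4.33 TPM and from 1.08 ± 1.13 to 31.6 ± 29.4 TPM (limma adjusted p = 0.0127 and 0.0192). With only these 2 groups fitted Cd79b still passed (adjusted p = 0.0347) and Ighm did not (0.066). Ms4a1, another B-cell marker, went the other way, from 16.4 ± 9.54 to 4.60 ± 2.27 TPM, without passing (log2 -1.58, limma adjusted p = 0.188). At 23.15 and 9.654 TPM it made up most of the summed lymphocyte markers in growing controls. Cd3e, Cd3g, Cd79a, Lck and Rag1, which mark lymphocyte lineages, and Ptprc, a marker of all leukocytes, were at 0 in all 4 growing libraries. Pecam1, an endothelial marker, was at 98.6 TPM in growing knockout replicate 1 and at most at 3.23 in the other 3. Krt18, a supporting-cell marker, was at 13.8 TPM in growing knockout replicate 2 and at most at 0.185 in the other 3. Summed markers of stromal cells were 3.10 to 8.09 TPM in growing knockouts and 0.253 to 0.516 in growing controls. Those of supporting, endothelial and blood and immune cells overlapped. Without knockout replicate 1 the log2 difference of Tcl1 was 0.85 (limma adjusted p = 0.0893), and without knockout replicate 2 it was 0.73 (0.143). The part of these markers in the higher Tcl1 was not tested. Oocyte markers summed to 52210 to 53570 TPM in growing controls and 103900 to 114300 in knockouts, with 4 of 14 higher and 2 lower. Most of this sum was Dppa3, a maternal-effect gene, with 45240 and 46800 TPM in controls and 94340 and 105500 in knockouts, and the other 13 markers summed to 6966 and 6776 TPM in controls and 9560 and 8839 in knockouts.

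The effects of the knockout in growing and in non-growing oocytes at P10 were compared directly. For Tcl1 the growing minus the non-growing effect was 1.52 on the log2 scale (standard error 0.321, limma adjusted p = 0.0153), from estimates of 0.79 and -0.73. For Tcl1b1 it was 2.85 (standard error 0.734, limma adjusted p = 0.037), from estimates of -1.58 and -4.43. The differences of Tcl1b2 (-1.91), Tcl1b3 (-2.10), Tcl1b4 (1.36) and Tcl1b5 (1.14) did not pass. Tcl1b2 passed without non-growing control replicate 1 (-2.76, adjusted p = 0.0153). Of all tested genes 7.46% passed in either direction, 4.84% with a higher and 2.62% with a lower effect in growing oocytes. With only these 4 groups fitted, the adjusted p was 0.0952 for Tcl1 and 0.0685 for Tcl1b1.

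**Figure D4:**
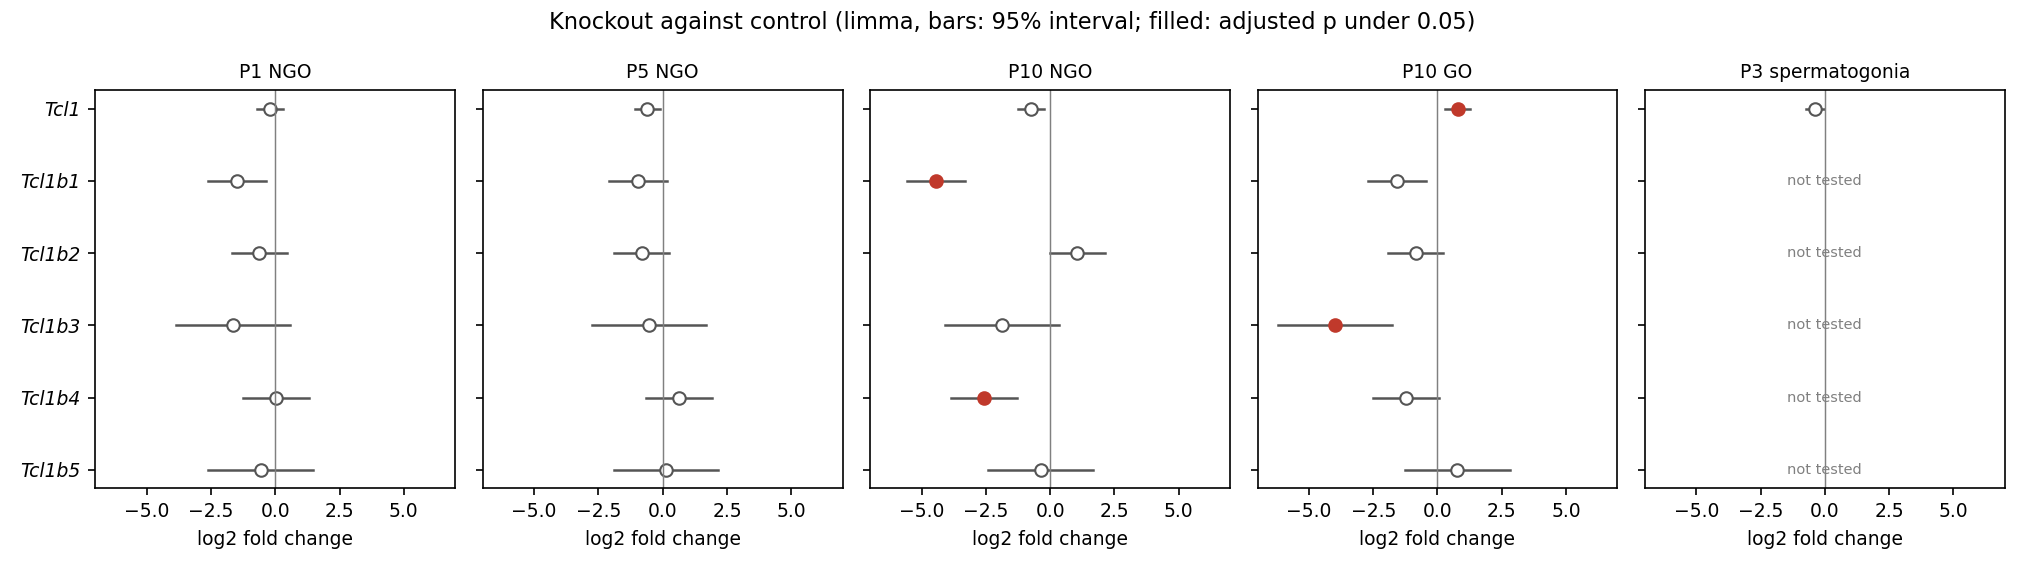
Log2 fold change of knockout against control (horizontal axis) for each member (vertical axis) in the 5 knockout comparisons, with limma estimates as points and 95% intervals as bars. Filled points passed an adjusted p of 0.05: Tcl1b1 at -4.43 and Tcl1b4 at -2.58 in P10 non-growing oocytes, and Tcl1 at 0.79 and Tcl1b3 at -3.98 in P10 growing oocytes. The Tcl1b genes were not tested in spermatogonia.

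In spermatogonia Tcl1 was the 1 member that passed the filter on low values. Its values were 337.5 and 410.1 TPM in knockouts and 479.8 and 501.4 in controls, and the groups did not overlap (log2 -0.40, 95% interval -0.75 to -0.04, limma adjusted p = 0.277). The comparison called 0 of 18671 genes by limma (0%), with 3004 (16.1%) at an unadjusted p under 0.05, Tcl1 among them, and 45.9% of all genes had no overlap. Summed markers of other cells were higher in both knockouts than in both controls: supporting cells 374.9 to 510.7 against 124.6 to 175.4 TPM, stromal cells 56.0 to 60.9 against 13.6 to 15.3, endothelial cells 50.1 to 56.5 against 28.1 to 33.1, blood and immune cells 84.1 to 108.2 against 32.8 to 41.8, and lymphocytes 98.9 to 109.9 against 41.4 to 53.1. Their part in the lower Tcl1 values was not tested.

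The AKT and PI3K list held 45 genes of the pathway that TCL1 proteins act on, of which 44 were tested. By limma 0 of 44 were called at P1, at P5 and in spermatogonia, where 1.7%, 1.36% and 0% of all genes were called. In P10 non-growing knockouts 1 fell, Akt1s1, an AKT substrate in the mTOR complex, from 7.36 ± 2.83 to 0.345 ± 0.146 TPM (limma adjusted p = 0.0206), where 1.92% of all genes were called. That call was lost with only these 2 groups fitted (adjusted p = 0.375). In growing knockouts 3 rose and 1 fell, where 13.8% of all genes were called. Eif4ebp1, a translation repressor, rose from 2.42 ± 0.201 to 16.5 ± 4.88 TPM (adjusted p = 0.00148), and Mapkap1, a subunit of the mTOR complex that phosphorylates AKT, from 9.45 ± 0.671 to 29.9 ± 4.58 (0.0301). Pik3ca, a catalytic subunit of PI3K, fell from 17.1 ± 3.16 to 6.93 ± 1.35 TPM (0.0347). With only the 2 groups fitted 0 of these 4 calls were kept, the limma adjusted p being 0.0579 for Eif4ebp1, 0.064 for Mapkap1 and 0.168 for Pik3ca. In controls 1 rose and 1 fell from P1 to P5, 6 rose and 12 fell from P5 to P10 in non-growing oocytes, and 2 rose and 6 fell from non-growing to growing oocytes, where 4.7%, 22.7% and 24.3% of all genes were called. Of these 2, 18 and 8 calls, 2, 15 and 6 were kept with only the groups compared. The list's median log2 change lay between -0.25 and 0.22 in the knockout comparisons, beside 0 to 0.09 over all genes.

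Mtcp1, the remaining mouse gene of the TCL1 family and located outside the cluster, was on that list. It had 0.559 and 0 TPM in growing controls (19 reads and 0) and 2.499 and 5.785 TPM in growing knockouts, and rose (log2 1.96, limma adjusted p = 0.0106), a call lost with only these 2 groups fitted (0.0919). Mtcp1 overlaps Cmc4 in the genome, so reads of the pair may be hard to tell apart. In P10 non-growing oocytes it had at most 4 reads in a library.

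The 10 protein-coding genes nearest to the cluster, 5 on each side, gave a local background. The nearest was Glrx5, 103108 bases away, a mitochondrial glutaredoxin, which rose from 21.2 ± 11.6 TPM in non-growing to 62.1 ± 2.60 in growing controls (limma adjusted p = 0.0345, or 0.0561 with only these groups fitted). In growing knockouts Glrx5 had 23.3 and 38.9 TPM against 60.2 and 63.9, which did not pass (log2 -1.02, adjusted p = 0.229). On the other side the nearest was Tunar, 111077 bases away, which rose in P5 knockouts from 0.368 ± 0.521 to 3.48 ± 1.22 TPM (limma adjusted p = 0.0263, or 0.159 with only these groups fitted). No other tested neighbour was called in a knockout comparison, and Dicer1 and Gsc fell between P5 and P10 controls (adjusted p = 0.0105 and 0.0347).

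Genes with the most similar pattern were named over the 16 oocyte libraries, among 7696 tested genes with a mean of at least 5 TPM. Family members and symbols of predicted gene models were left out of these. The correlations describe libraries that share stage, genotype and depth, and carry no test. Nearest to Tcl1 were Bdh1 (Pearson r = 0.953), Pecr (0.941), Oas1e (0.94), Nlrp4c (0.93) and Ldhb (0.93). Nearest to Tcl1b4 were Dppa1 (0.964), Itpr2 (0.954), Oosp1 (0.953), Ifitm6 (0.935) and Pttg1 (0.934), and nearest to Tcl1b2 were Rac1 (0.954), Traip (0.915), Abhd11 (0.904), Gnpda2 (0.901) and Elp2 (0.893). For Tcl1b1 they were Zfp963 (0.909), Erich5 (0.881), Fbxo43 (0.879), Pik3r1 (0.877) and Eif4e3 (0.86), for Tcl1b3 Skap1 (0.907), Tbc1d14 (0.845), Mtus2 (0.842), Cmya5 (0.836) and Sorbs2 (0.835), and for Tcl1b5 Calb1 (0.905), Phlda2 (0.895), Nat8f2 (0.895), Wfdc1 (0.889) and Gpx6 (0.88). Within the family r ran from 0.11 for Tcl1b2 with Tcl1b4 to 0.81 for Tcl1 with Tcl1b4, and each r of Tcl1b2 with another member was at most 0.31.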

How the data were processed

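Per the labels, RNA was made into low-input libraries and sequenced as paired reads. Per the submitters' processing notes reads were mapped to GRCm38, with STAR 2.5.4b, Trimmomatic 0.39, featureCounts 2.0.1 and SAMtools 1.9 among the tools. The authors deposited TPM in 1 table for 16 oocyte libraries and another for 4 spermatogonia libraries. The annotation, the handling of reads with several matches and the TPM step are not given in the sources used here. Reads were recovered from TPM with GENCODE M21 exon lengths, and low values (under 20 reads) were whole to a tolerance of 0.05 reads in 98.65% to 99.19% of cases per library. They are used only to describe counts.

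Values were tested as log2(TPM + 1), with a pseudocount of 1, in R 4.3.3 with limma 3.58.1 (eBayes with a trend, two-sided, Benjamini-Hochberg adjustment over all tested genes, threshold 0.05). Fold changes on this scale understate changes of low genes. Genes with at least 1 TPM in 2 libraries of a fit were tested. All 16 oocyte libraries were fitted together (20470 genes, 8 residual degrees of freedom, prior 3.842), and spermatogonia alone (18671 genes, 2 residual degrees of freedom, prior 3.973). All 6 members were tested in oocytes and 1 in spermatogonia.

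The fit was tested on simulated data and made too many false calls, mostly for genes near 0 in the other groups. All 16 libraries share 1 spread in this fit, and the part of this in the false calls was not tested. The simulation gave all genes 1 common spread beyond counting error, which real genes need not share. The simulation had been made easier after a first run recovered few changed genes, and its limit on false calls was then dropped, so this test was not passed. On the same simulated data a fit of only the groups compared made few false calls. Its result on the real data is given beside the calls of named genes that it ends. The simulation covered only the comparison of P10 growing knockouts with their controls. Near 0 meant a mean under 1 TPM over the oocyte libraries of all groups not compared. Tcl1b1, Tcl1b4 and Tcl1b5 average under 1 TPM in some groups, and Tcl1b3 is near 0 in 1 library. Being low in single groups or libraries is not that condition.

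Members, gene lists and tests were chosen with earlier results of these data known. All members are named in every comparison, up to 4 genes with the smallest p from a list discussed, and the 5 genes with the highest r to each member. Lists were the AKT and PI3K pathway and markers of oocytes, undifferentiated spermatogonia, supporting, stromal, endothelial, blood and immune cells and lymphocytes. Alternatives were a pseudocount of 0.1, no filter, a filter at 5 TPM, quantile normalization, no variance trend, a replicate block, only the groups compared, and leaving out each library. Descriptions used numpy 2.4.6 and pandas 2.3.3 in Python 3.11.15, and plots matplotlib 3.10.9.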

Additional observations from a re-analysis of the deposited data

Results flagged for a closer look

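The effect of the knockout at P10 differed between growing and non-growing oocytes for Tcl1, by 1.52 on the log2 scale (95% interval 0.82 to 2.22, limma adjusted p = 0.0153), the estimate being 0.79 in growing and -0.73 in non-growing oocytes. The call held without each of 7 of 8 libraries and was lost without growing control replicate 1 (1.39, adjusted p = 0.0599). Over all alternatives its adjusted p ran from 0.000405 to 0.0952.

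The effect also differed for Tcl1b1, by 2.85 (95% interval 1.25 to 4.45, limma adjusted p = 0.037), the estimate being -1.58 in growing and -4.43 in non-growing oocytes. This call held without 2 of 8 libraries, and its adjusted p ran from 0.00872 to 0.114. Groups of 2 libraries are too small for a check of single outlying libraries.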

How the results depend on the processing

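The number of members called was unchanged under all alternatives for the P1, P5 and P3 knockouts and for the difference between P5 and P1 effects, each 0. It was 2 for P10 non-growing knockouts and became 1 with no filter, 1 with the replicate block, 0 with only the groups compared, and 1 to 2 with a library left out. For growing knockouts it was 2, and became 1 with a pseudocount of 0.1, 0 with no filter, 1 without a variance trend, 3 with quantile normalization and 0 to 1 with a library left out. For P5 against P1 controls it was 3, and became 1 with no filter, 2 with a pseudocount of 0.1, quantile normalization or the replicate block, 4 with only the groups compared and 1 with any library left out. For P10 against P5 controls it was 2, and became 1 with no filter, 1 without a trend, 1 with the replicate block and 1 with any library left out. For growing against non-growing controls it was 4, 3 to 5 over the other settings, and 2 to 4 with a library left out. For the difference between growing and non-growing effects it was 2, and became 1 with no filter, 1 with quantile normalization, 1 without a trend, 1 with the replicate block, 0 with only the groups compared and 0 to 2 with a library left out. The cause of these shifts was not tested.

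A further limit is the shared spread. In data simulated for the growing knockout comparison, the fit of all 16 libraries gave more false calls than its threshold states. These were mainly for genes near 0 in the groups not compared, and the excess was not resolved. With only the groups compared, limma kept the calls of Tcl1 in growing knockouts (adjusted p = 0.0362), and in controls those of Tcl1 (0.00244), Tcl1b1 (0.0209) and Tcl1b4 (0.0258) from P1 to P5, of Tcl1 (0.0136) and Tcl1b2 (0.028) from P5 to P10, and of Tcl1b1 (0.014), Tcl1b2 (0.0378), Tcl1b3 (0.013) and Tcl1b4 (0.0274) in growing oocytes. It lost Tcl1b1 and Tcl1b4 in P10 non-growing knockouts, Tcl1b3 in growing knockouts and both differences of effects, and added Tcl1b1 in growing knockouts (0.0478), Tcl1b3 from P1 to P5 (0.049) and Tcl1 in growing controls (0.0413). That fit has 2 residual degrees of freedom in a pair of groups.

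The count of 2 in growing knockouts stood for Tcl1 with Tcl1b1 in that fit and for Tcl1b1 with Tcl1b3 under the replicate block.

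Signs turned only for values that were not called. Tcl1b5 at P5 was -0.01 with quantile normalization and ran from -1.09 to 1.34 with a library left out, -0.96 among them. The ranges with a library left out also crossed or reached 0 for Tcl1b4 (-0.06 to 0.11, with -0.03) and Tcl1b5 (-1.13 to 0.00) at P1, Tcl1b3 at P5 (-1.09 to 0.04), Tcl1b5 in P10 non-growing (-0.82 to 0.08) and growing knockouts (-0.35 to 1.9), Tcl1b2 (0.00 to 0.71) and Tcl1b5 (-0.56 to 1.87) from P1 to P5, and Tcl1b3 (-1.43 to 0.17), Tcl1b4 (-0.73 to 1.33, with -0.12) and Tcl1b5 (-1.99 to 0.45) from P5 to P10. For the P5 minus P1 effect they did so for Tcl1b1 (-0.17 to 1.19, with 0.00), Tcl1b2 (-0.55 to 0.16, with 0.10), Tcl1b3 (-0.16 to 2.41) and Tcl1b5 (-0.53 to 1.91, with -0.40).

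Labels give groups the same replicate numbers, which the fit reported did not use. Deviations of same-numbered libraries correlated at only -0.049 to 0.045 over all tested genes. That gave no sign of pairing but cannot exclude it, since a weak shared effect could be hidden by noise of low genes. With the replicate block Tcl1b1 in P10 non-growing knockouts kept its call (adjusted p = 0.013). The block lost Tcl1 in growing knockouts (0.102), Tcl1b4 in P10 non-growing knockouts (0.127), Tcl1b4 from P1 to P5 (0.0918), Tcl1 from P5 to P10 (0.0697) and Tcl1 in the difference of growing and non-growing effects (0.0607), and added Tcl1b1 in growing knockouts (0.0283). It changed no other call of a member. Over all genes, calls ranged from 0 to 939 in P10 non-growing knockouts (393 in the fit reported) and from 1527 to 3346 in growing knockouts (2827) over the 7 settings other than a library left out. Libraries with 0 to 3 reads limit what can be said of all 5 Tcl1b genes in spermatogonia and, in oocytes, of Tcl1b1 in P10 non-growing knockouts, of Tcl1b3 in P1 knockout replicate 1, and of Tcl1b4 and Tcl1b5 in several groups.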

Other observations

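Single Tcl1b genes often differed between replicates by more than their sum did. In P10 non-growing controls the 4 Tcl1b genes above 0 in both libraries differed 1.33-fold to 5.47-fold, while the summed Tcl1b TPM differed 1.18-fold. In growing controls the 5 genes differed 1.10-fold to 6.07-fold and the sum 1.03-fold, and in growing knockouts 1.05-fold to 10.5-fold and the sum 1.26-fold. At P5 the sum differed 1.10-fold between controls, where Tcl1b1 had 36.8 and 76.0 TPM and Tcl1b2 99.1 and 60.2. The summed Tcl1b TPM was lower in knockouts than in controls, without overlap, in each of the 4 oocyte comparisons, by ratios of 1.76 at P1, 1.68 at P5, 2.86 in P10 non-growing and 3.45 in growing oocytes. The sum was not tested. Of single genes, 40.9%, 47.3%, 34.5% and 48.3% had no overlap in these comparisons, in either direction. At P1 most of the sum was Tcl1b2. Not every member was lower: estimates were above 0 for Tcl1b4 at P1 and P5, Tcl1b5 at P5 and in growing oocytes, and Tcl1b2 in P10 non-growing oocytes.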
